A study of Mus musculus with 5 samples.

Results

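The interferon regulatory factors are a family of DNA-binding proteins, and 8 of the 32285 genes in the deposited feature list were taken by their symbols: Irf1, Irf2, Irf3, Irf4, Irf5, Irf7, Irf8 and Irf9. Mice of the C57/BL6 strain received an intravenous infusion, their spleens were collected 48 h later, and the study made 1 single-cell library for each of 5 treatments: saline, live allogeneic splenic cells from Balbc donors, live isogeneic splenic cells from B6 donors, apoptotic allogeneic splenic cells from Balbc donors, and apoptotic isogeneic splenic cells from B6 donors. In every group, digested spleen was enriched with magnets for CD45+ cells and, separately, for dendritic cells (DCs), and the fractions were mixed in equal parts before loading, so shares of cell types are set by the preparation. How many mice stand behind each library is stated nowhere in the sources used here, and infused cells that survived could not be told apart from host cells in these counts.

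With 1 library per treatment there was no replicate and no test between treatments. A difference below is a ratio of summed counts with a 95% interval that covers counting error only. A mean ± SD over the 5 libraries describes the spread over 5 different treatments. Levels are in CPM: the UMIs (unique molecular identifiers, each standing for 1 captured RNA molecule) of a gene summed over the cells of a class in a library, divided by all UMIs of those cells and scaled to the same total in every library. The 3′ assay gives no length-corrected scale, so levels are compared between cells and libraries, never between genes.

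After filtering (at least 1000 UMIs and 500 genes, at most 10% mitochondrial UMIs) and removal of called doublets, 16136 cells remained, from 1185 in the live allogeneic library to 6263 in the apoptotic isogeneic library, with 10559662 to 23998473 UMIs in the kept cells of a library and a median of 2267 to 4974 UMIs per cell. The cells formed 31 clusters, of which 29 were given names from marker genes. In the DC classes those markers bore out the names in part. Conventional type 1 DC-like cells (cDC1-like) had the marker genes Clec9a at 303 to 343 CPM and Xcr1 at 518 to 661 CPM, and plasmacytoid DC-like cells (pDC-like) had Siglech at 2095 to 2892 CPM. The 1274 conventional type 2 DC-like cells (cDC2-like) had Sirpa at 170 to 257 CPM, Xcr1 at 1.11 to 2.31 CPM and Siglech at 6.27 to 17.2 CPM, whereas Clec10a, a lectin often used to define cDC2, was at 0 in all 5 libraries. A neighbouring cluster of 414 cells led by Cd209a, another cDC2 marker, also carried the monocyte gene Lyz2 at 2214 to 6782 CPM and is described by its leading gene. Depth differed between libraries: the median cDC2-like cell had 7883 UMIs in the live allogeneic library and 3743 to 6482 UMIs in the others.

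IRF proteins share a DNA-binding domain that reads GAAA repeats, the core of the interferon-stimulated response element (ISRE). IRF3 and IRF7 are activated downstream of nucleic acid sensors and switch on type I interferon genes. IRF9 joins STAT2 in ISGF3, the complex through which type I interferon receptors act, and Irf7 is itself an ISGF3 target. IRF1 is induced by interferon gamma and drives genes of MHC class I presentation, while IRF2 competes for many of the same sites. IRF4 and IRF8 bind mainly with partners such as PU.1 and BATF family proteins and set lineage: IRF8 is required for cDC1 and IRF4 is used in cDC2, B cell activation and plasma cells. IRF5 acts downstream of Toll-like receptors in myeloid and B cells.

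Promoters, from 250 bases before to 50 bases after a start site, were taken from RefSeq (GRCm38.p6) for all 8 genes, 11 promoters in all. The 4 printed here show the 3 that held a searched motif and that of Irf7, the gene on which most of the differences below turn. The letters searched on both strands were GAAANNGAAA (ISRE core), TTCNNNGAA (the GAS site, for gamma-activated sequence) and GGAANNGAAA (the IRF-Ets composite), and capitals mark the matches. The Irf1 promoter (chr11:53769764-53770063, plus strand) held 1 GAS match from -90 to -82, counting -1 as the base before the start. The Irf2 promoter (chr8:46739495-46739794, plus strand) held an IRF-Ets match from -247 to -238 that overlaps an ISRE core match from -241 to -232, and a GAS match from -224 to -216. The Irf8 promoter (chr8:120736108-120736407, plus strand) held GAS matches from -171 to -163 and from -153 to -145. The Irf7 promoter (chr7:141266375-141266674, minus strand) held none, which says only that these letters are not in that window. Over 32851 promoters of the same length, 3.44% held the ISRE core, 8.30% the GAS letters and 2.72% the IRF-Ets letters. A match is a description of sequence, not a shown binding site.
Irf1: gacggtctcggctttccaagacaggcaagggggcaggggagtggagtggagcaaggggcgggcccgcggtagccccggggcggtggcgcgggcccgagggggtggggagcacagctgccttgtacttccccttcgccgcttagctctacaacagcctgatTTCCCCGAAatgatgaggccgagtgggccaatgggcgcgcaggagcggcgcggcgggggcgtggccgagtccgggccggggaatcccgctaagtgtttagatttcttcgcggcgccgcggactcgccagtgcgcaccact
Irf2: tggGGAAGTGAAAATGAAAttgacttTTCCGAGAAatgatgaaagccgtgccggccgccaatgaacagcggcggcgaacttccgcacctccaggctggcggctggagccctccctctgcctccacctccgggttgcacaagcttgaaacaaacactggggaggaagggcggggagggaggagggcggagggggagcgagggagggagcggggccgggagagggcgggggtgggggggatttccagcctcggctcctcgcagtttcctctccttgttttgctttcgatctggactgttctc
Irf8: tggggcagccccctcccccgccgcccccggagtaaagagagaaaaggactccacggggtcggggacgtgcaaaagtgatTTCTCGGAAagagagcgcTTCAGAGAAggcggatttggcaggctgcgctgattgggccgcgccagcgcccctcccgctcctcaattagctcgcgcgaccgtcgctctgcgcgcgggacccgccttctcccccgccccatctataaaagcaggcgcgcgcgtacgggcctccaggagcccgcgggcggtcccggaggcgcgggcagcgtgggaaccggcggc
Irf7: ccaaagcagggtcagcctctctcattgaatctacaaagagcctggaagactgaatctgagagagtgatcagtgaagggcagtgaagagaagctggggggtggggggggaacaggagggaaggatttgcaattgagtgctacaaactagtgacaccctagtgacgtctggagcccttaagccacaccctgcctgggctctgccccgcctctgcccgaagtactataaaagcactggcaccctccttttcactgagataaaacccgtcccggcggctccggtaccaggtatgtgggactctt

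In mm10, Irf1 (ENSMUSG00000018899) lies on chromosome 11 from 53770014 to 53778374, Irf2 (ENSMUSG00000031627) on chromosome 8 from 46739732 to 46847458, Irf4 (ENSMUSG00000021356) on chromosome 13 from 30749226 to 30766976, and Irf8 (ENSMUSG00000041515) on chromosome 8 from 120736358 to 120756694. Irf3 (ENSMUSG00000003184) lies on chromosome 7 from 44997648 to 45002848, Irf5 (ENSMUSG00000029771) on chromosome 6 from 29526625 to 29541871, Irf7 (ENSMUSG00000025498) on chromosome 7 from 141262706 to 141266481, and Irf9 (ENSMUSG00000002325) on chromosome 14 from 55603571 to 55610030. All 8 are annotated as protein coding, Irf7 on the minus strand and the others on the plus strand. Irf9 overlaps Rnf31 on its own strand, so its counts are uncertain. Irf2, Irf3, Irf5 and Irf7 overlap genes on the opposite strand (Gm45479 and Gm31172, Bcl2l12, Tnpo3 and Phrf1 in that order), and whether the authors' counting used strand is not stated in the sources used here.

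The members differed in the spleen cells where their mean level was highest, as the plot of levels by cell class shows. Irf8, the lineage factor of cDC1, was highest in pDC-like cells, at 4247 CPM after saline, 3475 after live allogeneic, 3407 after live isogeneic, 3643 after apoptotic allogeneic and 3952 after apoptotic isogeneic infusion (3745 ± 351, SD over 5 libraries). In cDC1-like cells Irf8 was at 2221, 2137, 1822, 1956 and 2055 CPM in the same order (2038 ± 155). Every library had more Irf8 in pDC-like than in cDC1-like cells, and the ranges of both classes were apart from each other and from all lower classes. Red pulp macrophage-like cells followed at 549 ± 42.7 CPM, natural killer (NK) cell-like cells at 471 ± 48.4 and B cell-like cells at 389 ± 40.9, and these neighbours overlapped in range. In cDC2-like cells Irf8 was at 13.3, 29.9, 31.7, 16.3 and 18.5 CPM (21.9 ± 8.32), near the erythroid-like cells at 6.42 ± 4.82 CPM. At an equal 1000 UMIs drawn from each cell, 94.9 to 97.6% of pDC-like and 73.1 to 82.2% of cDC1-like cells had an Irf8 UMI. In cDC2-like cells that share was 0.797 to 4.11% (4.78 to 9.59% of cells unthinned), against 0 to 2.79% in erythroid-like cells, which should lack the gene (3.85 to 11.8% unthinned, with median depths of 4054 to 41387.5 UMIs per cell). The cDC2-like shares lie so close to that background that they are not read as expression of Irf8 in these cells.

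**Figure D1:**
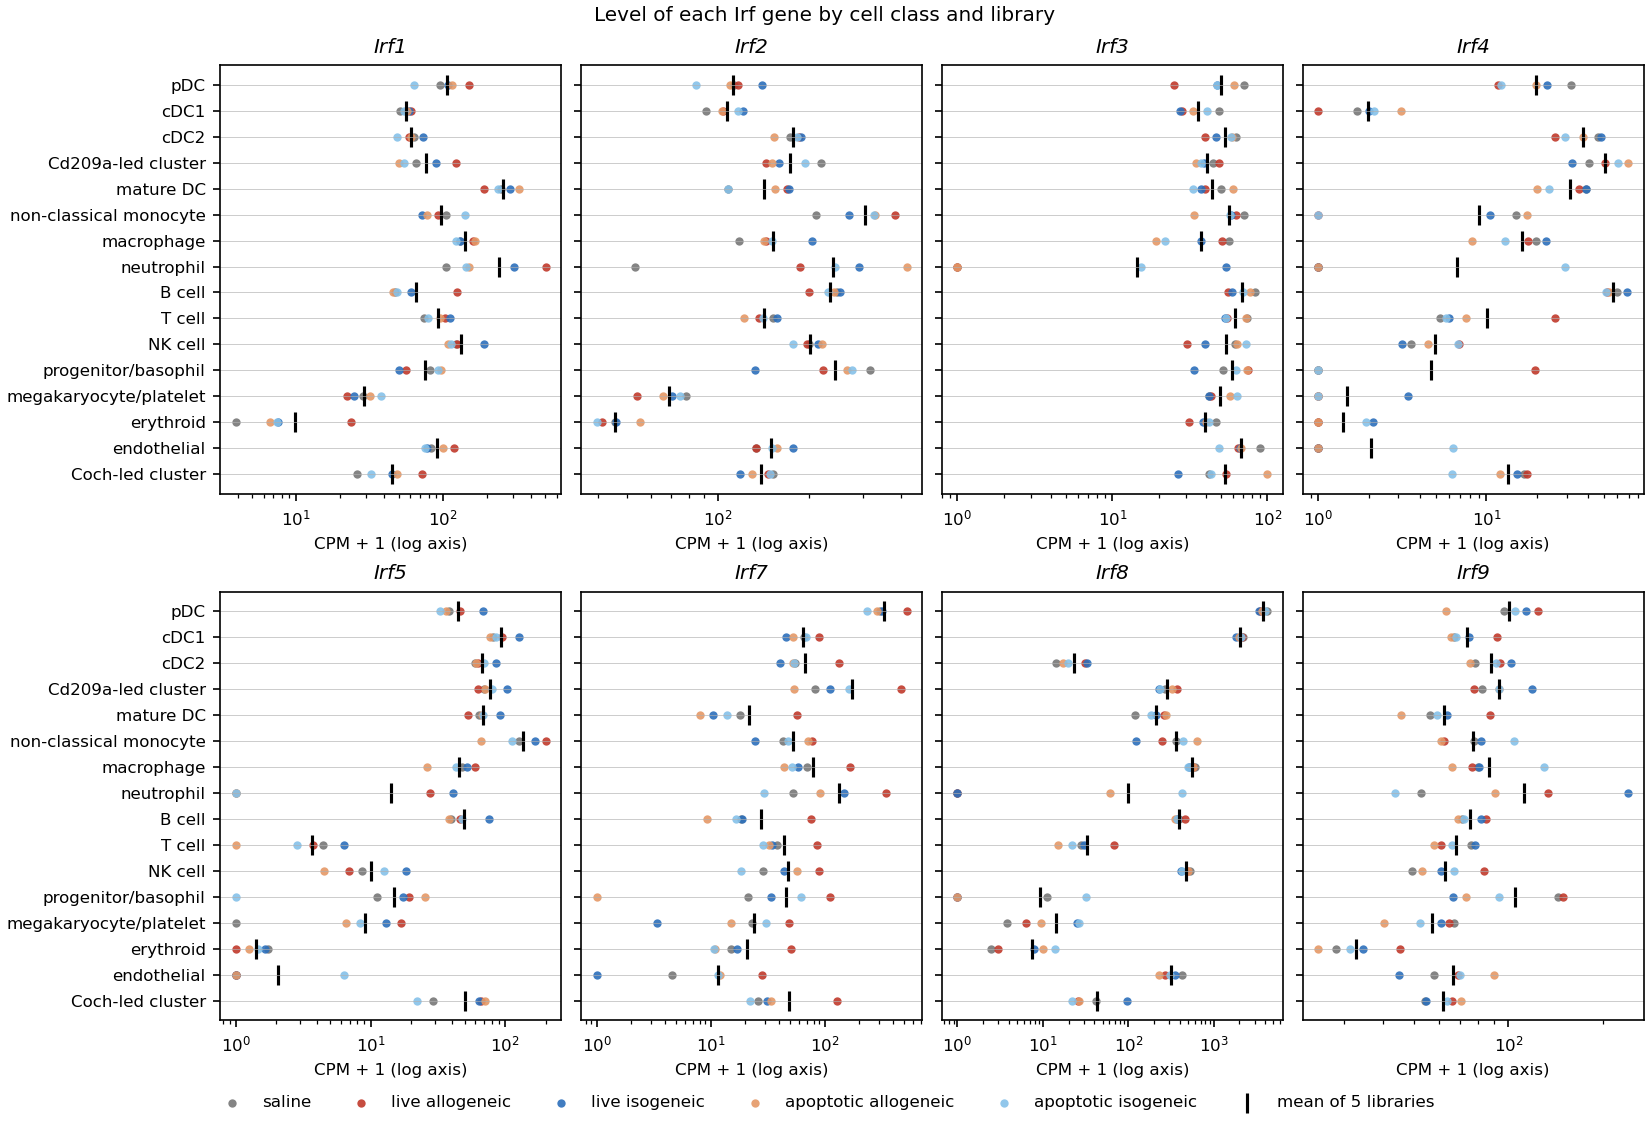
Levels of the 8 genes by cell class, 1 panel per gene. The horizontal log axis is CPM + 1, each dot is 1 of the 5 libraries and the black bar is their mean; Irf8 stands apart in pDC-like (3745 CPM) and cDC1-like cells (2038 CPM), while Irf3 and Irf9 have no class that stands apart.

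Irf4, which works in activated B cells and plasma cells, was at 149 CPM in plasma cell-like cells, a class with fewer than 10 cells in the live allogeneic library. Among larger classes it was highest in B cell-like cells (55.9 ± 7.22 CPM, range 50.2 to 67.3), the Cd209a-led cluster (49.8 ± 15) and cDC2-like cells (36.4 ± 9.95), and these neighbours overlapped in range. A B cell-like cluster led by Nfkbid, an inhibitor of NF-κB proteins, had a mean of 122 CPM. In cDC1-like cells Irf4 had 13 UMIs in 1172 cells (0.988 ± 0.763 CPM), and in erythroid-like cells its mean was 0.409 CPM. Irf4 and Irf8 thus lay at opposite ends in the conventional DC classes, as the plot of Irf4 against Irf8 shows.

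Counted as a share of Irf4 and Irf8 UMIs together, which compares classes and libraries only, Irf4 made up 77.3% of the cDC2-like UMIs after saline (Clopper-Pearson 67.7 to 85.2%), 45.2% after live allogeneic (27.3 to 64.0%), 59.9% after live isogeneic (51.3 to 68.0%), 69.0% after apoptotic allogeneic (58.0 to 78.7%) and 60.7% after apoptotic isogeneic infusion (47.3 to 72.9%). The live allogeneic share was the lowest, and its interval overlapped those of the live isogeneic, apoptotic allogeneic and apoptotic isogeneic libraries but not that of saline. These cDC2-like shares rest on 17 to 57 Irf8 UMIs per library, too near background to be read as expression of Irf8. The part of that background in the differences between libraries was not tested. In the Cd209a-led cluster the share was 11.6 to 20.6%, in B cell-like cells 9.99 to 15.2% and in mature DC-like cells 6.45 to 24.4%. In pDC-like cells it was 0.281 to 0.716%, and in cDC1-like cells at most 0.107%, with 0 UMIs of Irf4 in the live allogeneic library (upper limit 0.138%). The Cd209a-led cluster differed from the cDC2-like class in its level of Irf8, at 285 ± 62.8 CPM (229 to 375) against 13.3 to 31.7 CPM, while the ranges of Irf4 overlapped.

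**Figure D2:**
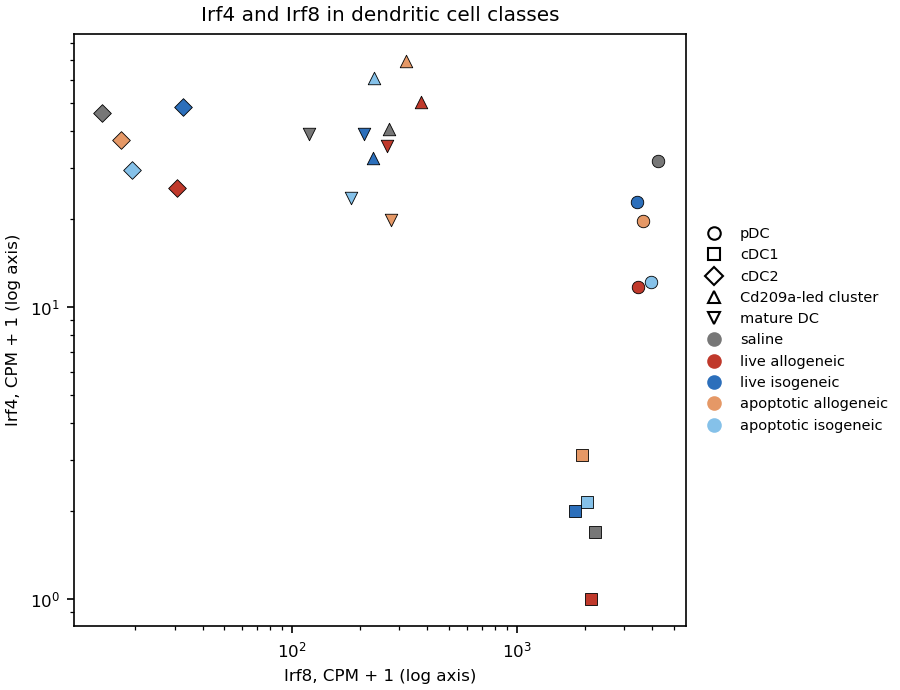
Irf4 (vertical axis) against Irf8 (horizontal axis) in 5 DC classes, both as CPM + 1 on log axes, with class by marker shape and library by colour. The cDC2-like points lie at the left (13.3 to 31.7 CPM of Irf8), the cDC1-like points at the bottom right (at most 2.11 CPM of Irf4), and the Cd209a-led cluster between them in Irf8.

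Irf7, the amplifier of type I interferon production, was highest in pDC-like cells, at 305 CPM after saline, 524 after live allogeneic, 318 after live isogeneic, 285 after apoptotic allogeneic and 234 after apoptotic isogeneic infusion (333 ± 111). The Cd209a-led cluster followed at 174 ± 167 CPM, neutrophil-like cells at 132 ± 127 (on 30 UMIs), red pulp macrophage-like cells at 77.9 ± 51.1, cDC2-like cells at 66.0 ± 37.2 and cDC1-like cells at 63.4 ± 16.4. No class was apart in range from its neighbour in that order. The wide SDs came with 1 library, since the live allogeneic library had the highest Irf7 level in all 6 of these classes. Classical monocyte-like cells had fewer than 10 cells in 3 libraries and were left out of this order, with Irf7 at 14.2 to 1189 CPM.

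Irf1 was highest in mature DC-like cells (258 ± 52.8 CPM, range 190 to 330) and in neutrophil-like cells (241 ± 166, on 59 UMIs), then in red pulp macrophage-like cells (142 ± 19.6), with cDC2-like cells at 60.1 ± 8.82 and erythroid-like cells lowest at 8.84. Irf2 was highest in non-classical monocyte-like cells (304 ± 66.0), with B cell-like cells at 233 ± 20.7, cDC2-like cells at 175 ± 14.3 and cDC1-like cells at 106 ± 11.5. Irf5 was also highest in non-classical monocyte-like cells (134 ± 51.3), followed by cDC1-like cells (92.3 ± 19.9) and the Cd209a-led cluster (76.3), with cDC2-like cells at 66.7 ± 11, T cell-like cells at 2.68 and erythroid-like cells at 0.415. For Irf5 the ranges of the pDC-like cells and the class next below in mean, progenitor- or basophil-like cells, were apart. By mean, DC, monocyte, macrophage and B cell-like classes lay above that gap and T, NK and neutrophil-like classes below it. Their ranges did not all part there, since neutrophil-like cells reached 39.8 CPM and red pulp macrophage-like cells went down to 25.3 CPM. Irf3, the constitutive sensor-linked member, spanned little, from 67.9 ± 11.9 in B cell-like to 34.7 in cDC1-like and 13.5 in neutrophil-like cells, the last resting on 5 UMIs. Irf9, the ISGF3 subunit, was at 111 ± 79.7 in neutrophil-like (30 UMIs), 104 ± 38.7 in progenitor- or basophil-like (32 UMIs), 99.6 in pDC-like, 87.1 ± 11 in cDC2-like, 72.6 in cDC1-like and 32.0 in erythroid-like cells.

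Genes whose level most resembled each member were ranked by Pearson r of log2(CPM + 10) over 45 sums, those of 9 classes in each of 5 libraries, among 8995 genes. These sums share their libraries and depth, and the values are a description. For Irf8 the closest were Srgn (r = 0.845), Aldh3b1 (0.836) and Tubb2b (0.824). For Irf5 they were the MHC class II genes H2-Eb1 (0.953) and H2-Ab1 (0.947), and Fgd2 (0.948), and for Irf1 MHC class I genes and Clec2d, H2-K1 (0.921), H2-D1 (0.902) and Clec2d (0.887). Irf2 was closest to Bin1 (0.934), Wipf1 (0.917) and Nedd9 (0.915), Irf4 to Pou2f2 (0.828) and Cyp4f18 (0.826), Irf7 to Bst2 (0.849), Csf2rb2 (0.829) and Tapbp (0.824), and Irf9 to H2-T23 (0.860), Tor1aip1 (0.851) and Arhgef6 (0.834). Irf3 had the weakest neighbours, Trim56 (0.713), Chd8 (0.710) and Ash1l (0.708). With each class centred on its own mean, so that only the libraries within a class counted, Irf7 was closest to Ifi47 (0.877), Isg15 (0.869) and Psme2 (0.859), and Irf1 to B2m (0.789) and Irgm1 (0.780). In the same centred ranking Irf3 was closest to Xpo7 (0.782), 4833407H14Rik (0.743) and Fam126b (0.703), and Irf5 to Cggbp1 (0.772), Pdcl3 (0.761) and Spop (0.742). Values were lower for Irf4 with Ccdc50 (0.678), Spag5 (0.617) and Pola1 (0.610), for Irf8 with Psmd12 (0.656), Nrgn (0.643) and Col5a1 (0.625), for Irf9 with Ngdn (0.627), H2-Q4 (0.614) and Snap23 (0.609) and for Irf2 with Senp5 (0.571), Gm28875 (0.561) and Zbtb11 (0.556).

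The study's title asks about alloantigen and cDC2, so the live allogeneic and live isogeneic libraries were set side by side in cDC2-like cells first. Irf7 was higher in the live allogeneic library and the rest of the family was close, apart from Irf4. Irf7 stood at 53.6 CPM (95% Poisson interval 43.0 to 66.0) after saline, 132 (104 to 165) after live allogeneic, 40.0 (31.3 to 50.4) after live isogeneic, 51.4 (40.9 to 63.8) after apoptotic allogeneic and 53.1 (41.3 to 67.2) after apoptotic isogeneic infusion. The live allogeneic interval was apart from all 4 others, which overlapped one another. The live allogeneic level was 3.30-fold the live isogeneic level (2.35 to 4.62, 75 against 72 UMIs from 73 and 285 cells) and 2.46-fold the saline level (1.78 to 3.38), and these folds share the live allogeneic library. The fold against saline was 4.84 with the interferon genes among the variable genes, 4.90 at the coarser clustering resolution of 0.5, 4.87 with the Cd209a-led cluster counted in, and 1.60 (0.570 to 3.93) with every cell thinned to 1000 UMIs. All of these settings but the last count cells high in Cd209a as cDC2-like, so they overlap. Cells with an Irf7 UMI made up 39.7% after live allogeneic and 20.7% after live isogeneic infusion, or 9.59% (3.94 to 18.8%) and 4.91% (2.71 to 8.10%) after thinning every cell to 1000 UMIs, where the intervals overlapped. Thinned in that way the fold against live isogeneic was 1.95 (0.667 to 5.17), on few UMIs, and with the Cd209a-led cluster counted among the cDC2-like cells it was 4.84.

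Irf4 was the member lower in the live allogeneic library, at 45.2 CPM (35.5 to 56.6) after saline, 24.6 (13.4 to 41.3) after live allogeneic, 47.2 (37.7 to 58.4) after live isogeneic, 36.3 (27.6 to 47.0) after apoptotic allogeneic and 28.5 (20 to 39.2) after apoptotic isogeneic infusion. The live allogeneic and apoptotic isogeneic libraries were the lowest, and the live allogeneic interval overlapped those of all others. Its fold against live isogeneic was 0.521 (0.273 to 0.923), resting on 14 against 85 UMIs. Under the alternative settings that fold ran from 0.471 to 0.865. Irf4 was not past 1.5-fold where cells high in Cd209a were counted as cDC2-like. Against saline, Irf4 was at 0.545-fold (0.284 to 0.972) in the live allogeneic and 0.630-fold (0.413 to 0.946) in the apoptotic isogeneic library, which share the saline library.

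The other 6 genes stayed within 1.5-fold between the live libraries: Irf1 was at 0.803-fold (0.531 to 1.18), Irf2 at 0.989 (0.786 to 1.23), Irf3 at 0.849 (0.505 to 1.37), Irf5 at 0.724 (0.486 to 1.05), Irf8 at 0.944 (0.515 to 1.65) and Irf9 at 0.926 (0.669 to 1.26). Past 1.5-fold lay 1 of 8 members higher, beside 10.4% of all 7923 genes with at least 20 UMIs in the pair of sums, and 1 of 8 lower, beside 17.6%. These counts are near the share over all genes and say nothing about the family as a whole, and the median log2 ratio was -0.15 over the members against -0.05 over all genes. The ribosomal RNA-linked transcript Gm42418 took 61498 CPM of the cDC2-like UMIs in the live isogeneic library and 13580 to 18346 CPM in the others, and with it and other technical genes left out of the totals the Irf7 fold was 3.12.

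**Figure D3:**
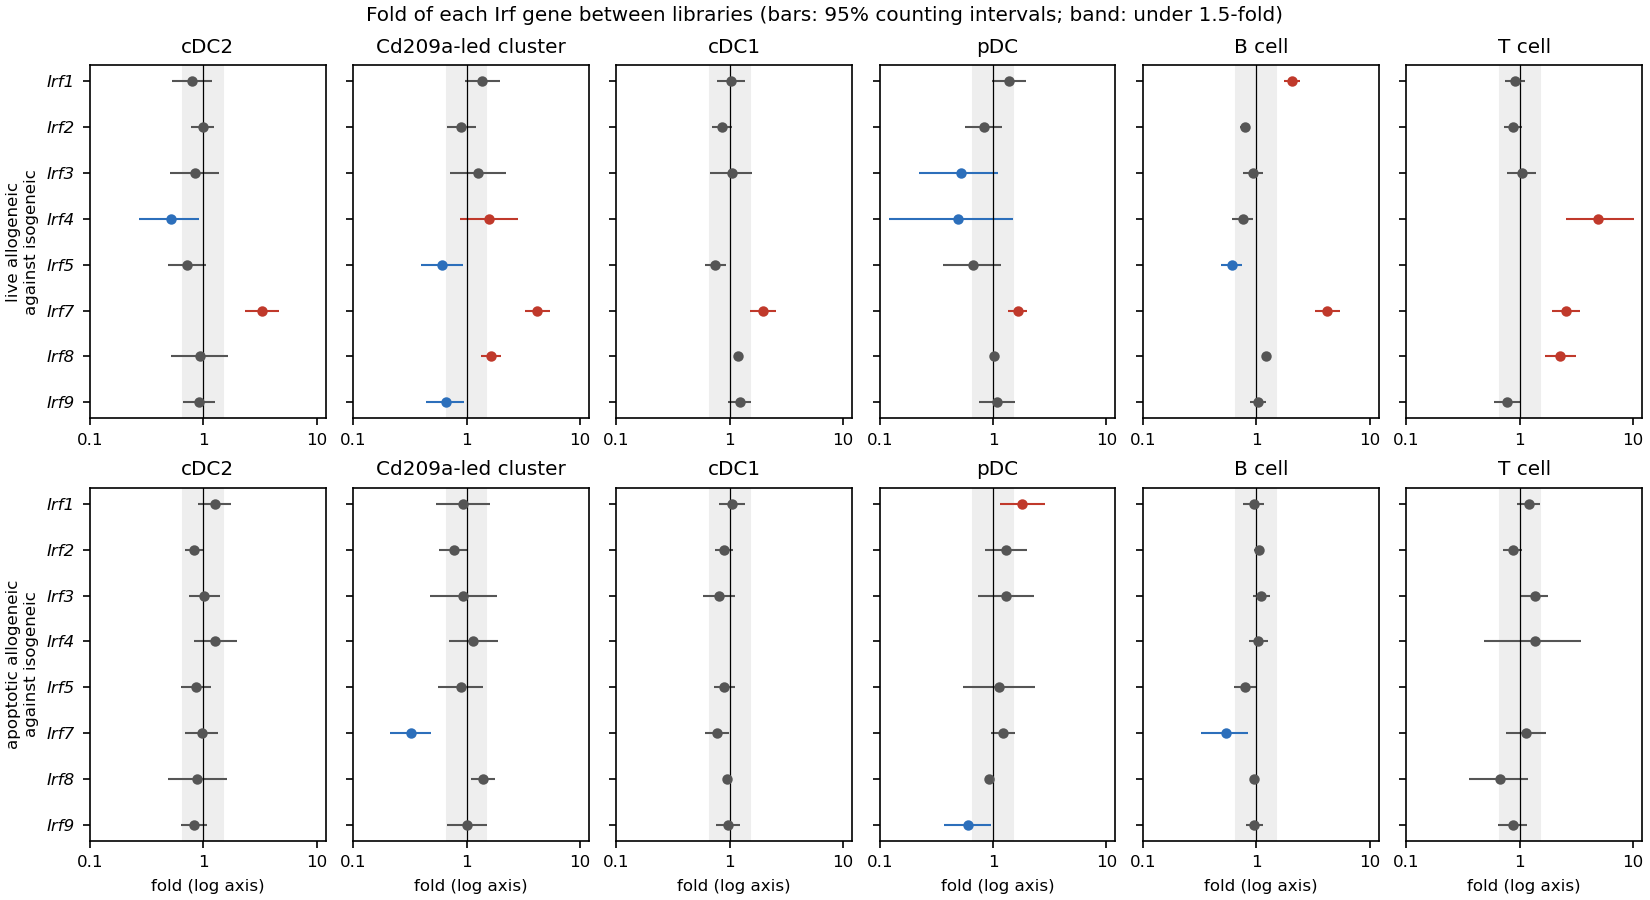
Fold of each gene between allogeneic and isogeneic cells, live (top row) and apoptotic (bottom row), in 6 classes. The log axis is fold, bars are 95% counting intervals, the grey band is within 1.5-fold, and red or blue marks genes past it (higher or lower); Irf7 lies past the band in all 6 panels of the live pair.

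Against saline, the same class had Irf7 and Irf8 past 1.5-fold higher in the live allogeneic library (2 of 8 beside 10.5% of all genes) and Irf3 and Irf4 lower (2 of 8 beside 17.5%). Irf3 was at 0.629-fold (0.378 to 1.00). The Irf8 value of 2.25-fold (1.12 to 4.45) rests on 17 against 22 UMIs, and the live isogeneic library had a like value of 2.39-fold (1.44 to 4.10) as its 1 of 8 members higher (10.5% of all genes), with 0 of 8 lower (9.62%). Irf8 in cDC2-like cells was at 3.26 to 9.55% of its level in barcodes of at most 100 UMIs, which hold mostly free RNA, and with cells of at least 2000 UMIs only the live allogeneic value against saline turned to 0.927 (0.267 to 2.62).

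In the apoptotic pair no member was past 1.5-fold in cDC2-like cells (0 of 8 higher beside 7.31% of all genes, 0 of 8 lower beside 6.59%). Irf7 was at 0.968-fold (0.694 to 1.35), Irf4 at 1.28 (0.831 to 1.98), Irf1 at 1.26 (0.907 to 1.77), and the others between 0.829 and 1.02. The upper bound for Irf7 lies below the lower bound of its live fold. Against saline 0 of 8 were past 1.5-fold in the apoptotic allogeneic library (5.24% of all genes higher, 9.09% lower), and Irf4 was the 1 of 8 lower in the apoptotic isogeneic library (10.2% of all genes), with 0 of 8 higher (5.02%).

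The Irf7 difference of the live pair was not limited to cDC2-like cells, as the plot of Irf7 by class and library shows. It was past 1.5-fold higher in all 10 classes with enough UMIs of the 11 compared, from 1.65-fold to 4.28-fold, where between 4.18% (erythroid-like) and 21.2% (red pulp macrophage-like) of all genes were. No other member was past it in the same direction in more than 3 classes. In the Cd209a-led cluster Irf7 was at 81.4 CPM after saline, 463 after live allogeneic, 110 after live isogeneic, 52.6 after apoptotic allogeneic and 163 after apoptotic isogeneic infusion. The live allogeneic level was 4.22-fold the live isogeneic level (3.28 to 5.46) and 5.69-fold the saline level (4.10 to 8.05), and it was apart from all others. In pDC-like cells the fold was 1.65 (1.36 to 1.99), in cDC1-like cells 1.96 (1.51 to 2.55), or 1.40 (0.446 to 3.83) with thinned cells, in T cell-like cells 2.55 (1.93 to 3.40) and in B cell-like cells 4.20 (3.28 to 5.41). Among rarer classes the fold was 4.28 (2.53 to 7.57) in an unnamed cluster led by Coch (13.6% of all genes higher), 3.08 (2.31 to 4.10) in erythroid-like cells, 2.90 (1.22 to 7.60) in red pulp macrophage-like cells and 2.06 (0.981 to 4.23) in NK cell-like cells (12% of all genes higher), the last with an interval that reaches below 1. Erythroid-like cells had 49.8 CPM (40.6 to 60.6) in the live allogeneic library and 9.67 to 16.2 CPM in the other 4.

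Whether the cDC2-like fold was larger than in other classes depended on the class it was set against. It was 1.68 times that of cDC1-like cells (1.11 to 2.53) and 2.00 times that of pDC-like cells (1.38 to 2.90), whose saline level was already high. It was 1.29 times that of T cell-like (0.845 to 1.97), 0.785 times that of B cell-like (0.523 to 1.18) and 0.782 times that of Cd209a-led cells (0.520 to 1.17), and these 3 intervals include 1.

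**Figure D4:**
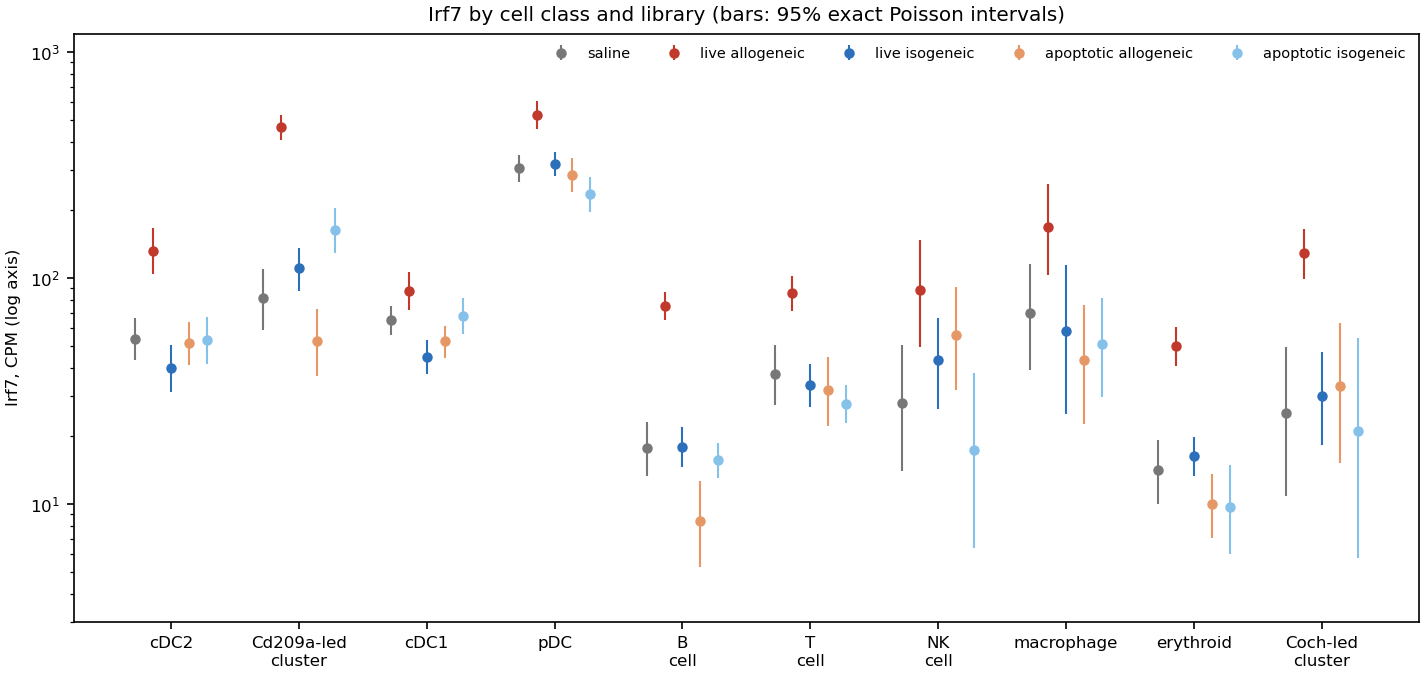
Irf7 in 10 classes and 5 libraries. The log axis is CPM and bars are 95% exact Poisson intervals; the live allogeneic library (463 CPM in the Cd209a-led cluster, 132 CPM in cDC2-like cells, 75.1 CPM in B cell-like cells) is the highest point in each of the 10 classes.

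Irf7 was also higher in barcodes of at most 100 UMIs, at 114 CPM in the live allogeneic library against 42.3 after saline, 38.0 after live isogeneic and 44.4 after apoptotic isogeneic infusion. The apoptotic allogeneic file lists no such barcodes. A member that a class should lack gives a measure of how much of that RNA its cells carry. In the live allogeneic library, cDC2-like cells had Irf8 at 8.21% of its level in those barcodes, and Irf7 at that share would be 9.39 CPM (at most 15 from counting error) of the 132 CPM measured. In T cell-like cells, gauged by Irf5, it would be 10.4 CPM (at most 26.5) of 85.6, and in erythroid-like cells, gauged by Irf8, 0.620 CPM (at most 1.59) of 49.8. These values assume the same share for every gene, and their limits cover only the counting error of the gene used as gauge. The part of free RNA in the Irf7 difference was not tested.

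Between the apoptotic libraries Irf7 was measured in 9 classes and was past 1.5-fold lower in the apoptotic allogeneic library in the Cd209a-led cluster (0.324-fold, 0.211 to 0.487, 36 against 76 UMIs) and in B cell-like cells (0.536-fold, 0.324 to 0.848, 22 against 124 UMIs). It was higher in NK cell-like cells (3.23-fold, 1.20 to 10.1, on 16 against 6 UMIs, beside 10.9% of all genes) and within 1.5-fold in the other 6. In the Cd209a-led cluster the apoptotic isogeneic library was 2.00-fold saline (1.36 to 2.98), and 78.9% of its 76 Irf7 UMIs lay in the tenth of cells with the most (52.6 to 72.6% in the other libraries of this cluster). That library's cells of the cluster also had Cd79a, a B cell gene, at 81.3 CPM and Cd3e, a T cell gene, at 25.7 CPM, against 1.46 to 21.9 and 0 to 4.38 CPM elsewhere, and the part of those cells in the Irf7 value was not tested.

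In the Cd209a-led cluster 3 of 8 members were past 1.5-fold higher between the live libraries (18.6% of all genes): Irf7, Irf8 at 1.64 (1.33 to 2.02) and Irf4 at 1.58 (0.875 to 2.85). Lower were Irf5 at 0.610 (0.395 to 0.924) and Irf9 at 0.653 (0.442 to 0.952), 2 of 8 beside 15.9%. The median log2 ratio was 0.34 over the members and 0.03 over all genes. Against saline, Irf1 at 1.91 (1.24 to 2.97) and Irf7 were 2 of 8 higher (19.1%), and Irf2 at 0.656 (0.485 to 0.882) was 1 of 8 lower (16.3%). Classical monocyte markers summed to 9612 CPM in the live allogeneic library and to 5146 to 7094 CPM in the others, and Cd209a itself was lowest there (174 CPM against up to 421), so the mix of cells in the cluster moved with these values and its part in them was not tested. Between the apoptotic libraries Irf7 was the 1 of 8 lower (10.2%) and 0 of 8 were higher (11.4%).

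In cDC1-like cells Irf7 was at 65.0, 87.5, 44.5, 52.3 and 67.9 CPM (saline, live allogeneic, live isogeneic, apoptotic allogeneic, apoptotic isogeneic), and it was the 1 of 7 measured members past 1.5-fold higher between the live libraries (11.3% of all genes), with 0 of 7 lower (10.1%). The live isogeneic library was the lowest, and against saline the live allogeneic level was 1.35-fold (1.05 to 1.71). Irf8, the gene this lineage depends on, was at 1.17-fold (1.12 to 1.23) between the live libraries. The live isogeneic level was the lowest of the 5, and the live allogeneic level was at 0.963-fold (0.920 to 1.01) of saline. Within the cluster led by Xcr1 the Irf8 fold was 1.19 (1.13 to 1.26), in that led by Apol7c 1.08, and in that led by Ifi205 0.965; the Apol7c-led cluster, 148 of 316 cDC1-like cells in the live isogeneic library, had Irf8 at 1009 CPM on average against 2114 in the Xcr1-led cluster. The apoptotic pair had 0 of 7 past 1.5-fold (6.18% of all genes higher, 7.31% lower), with Irf7 at 0.770 (0.601 to 0.988).

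In pDC-like cells, the class with the most Irf7, the live allogeneic level was past 1.5-fold against both live isogeneic and saline (1.72, 1.41 to 2.09). Irf7 was 1 of 8 members higher between the live libraries (10.2% of all genes), and Irf3 at 0.522 (0.222 to 1.10) and Irf4 at 0.490 (0.121 to 1.49, on 4 against 18 UMIs) were 2 of 8 lower (18%), both with intervals that include 1. Irf8 was at 1.02-fold (0.954 to 1.09) between the live libraries, and was lower in both than after saline (0.818, 0.766 to 0.873, and 0.802, 0.762 to 0.845). In the apoptotic pair Irf1 was 1 of 8 higher (9.82% of all genes) at 1.81 (1.16 to 2.87) and Irf9 1 of 8 lower (8.2%) at 0.600 (0.372 to 0.952).

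B cell-like cells, the largest class with 7163 cells, had both Irf1 and Irf7 higher in the live allogeneic library. Irf1 was at 46.1 CPM (38.8 to 54.4) after saline, 123 (110 to 138) after live allogeneic, 59.7 (53.4 to 66.5) after live isogeneic, 45.1 (37.4 to 54.0) after apoptotic allogeneic and 47.5 (42.8 to 52.5) after apoptotic isogeneic infusion. Irf7 was at 17.7, 75.1, 17.9, 8.34 and 15.6 CPM in the same order. For both genes the live allogeneic level was apart from the other 4. Between the live libraries Irf1 was at 2.07-fold (1.76 to 2.42), and with Irf7 it made 2 of 8 higher beside 5.04% of all genes. Irf5 at 0.606 (0.488 to 0.747) was 1 of 8 lower beside 21.9%, though it was 1.94-fold saline (1.58 to 2.40) in the live isogeneic library. The Irf1 fold of cDC2-like cells was 0.389 times that of B cell-like cells (0.258 to 0.587). Against saline Irf1 was at 2.67 (2.18 to 3.28) and Irf7 at 4.25 (3.13 to 5.86), 2 of 8 beside 5.32%, and Irf3 at 0.657 (0.530 to 0.811) was 1 of 8 lower beside 20.9%. Between the apoptotic libraries Irf7 was the 1 of 8 lower (5.46%), with 0 of 8 higher (4.33%).

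Much of the B cell-like Irf7 difference lay in 1 cluster led by Ifit3, an interferon-induced gene. It held 220 of 516 B cell-like cells in the live allogeneic library, 49 of 1046 after saline, 53 of 1450 after live isogeneic, 30 of 702 after apoptotic allogeneic and 130 of 3449 after apoptotic isogeneic infusion. Ifit3 and Irf7 were not among the genes used for clustering, but other genes of the interferon response may have been. Leaving out cells grouped by such genes could lower the Irf7 fold by itself. The size of this cluster and the folds inside and outside it are thus a description. Inside it Irf7 was at 153 CPM after live allogeneic and 81.3 after live isogeneic infusion (1.89-fold, 1.13 to 3.38), and Irf1 at 163 and 127 CPM (1.29-fold, 0.841 to 2.04). Without it the Irf7 fold between the live libraries was 1.47 (0.961 to 2.21) and the Irf1 fold 1.69 (1.38 to 2.06). Irf1 was thus higher outside that cluster too: at 2.85-fold (1.60 to 5.27) in the Ighd-led, 2.18 (1.28 to 3.71) in the Nfkbid-led, and 1.52 (1.01 to 2.27) in the Cr2-led cluster, whose leading gene marks marginal zone B cells. In the Vpreb3-led and Fcer2a-led clusters it was at 1.34 (0.629 to 2.62) and 1.13 (0.662 to 1.83), with intervals that include 1. In the Nfkbid-led cluster Irf8 was also higher, at 758 against 370 CPM (2.05-fold, 1.71 to 2.46). Irf8 was also higher in the Ifit3-led cluster (1.60-fold, 1.23 to 2.11) and was lower in the Vpreb3-led cluster (0.653-fold, 0.472 to 0.883).

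**Figure D5:**
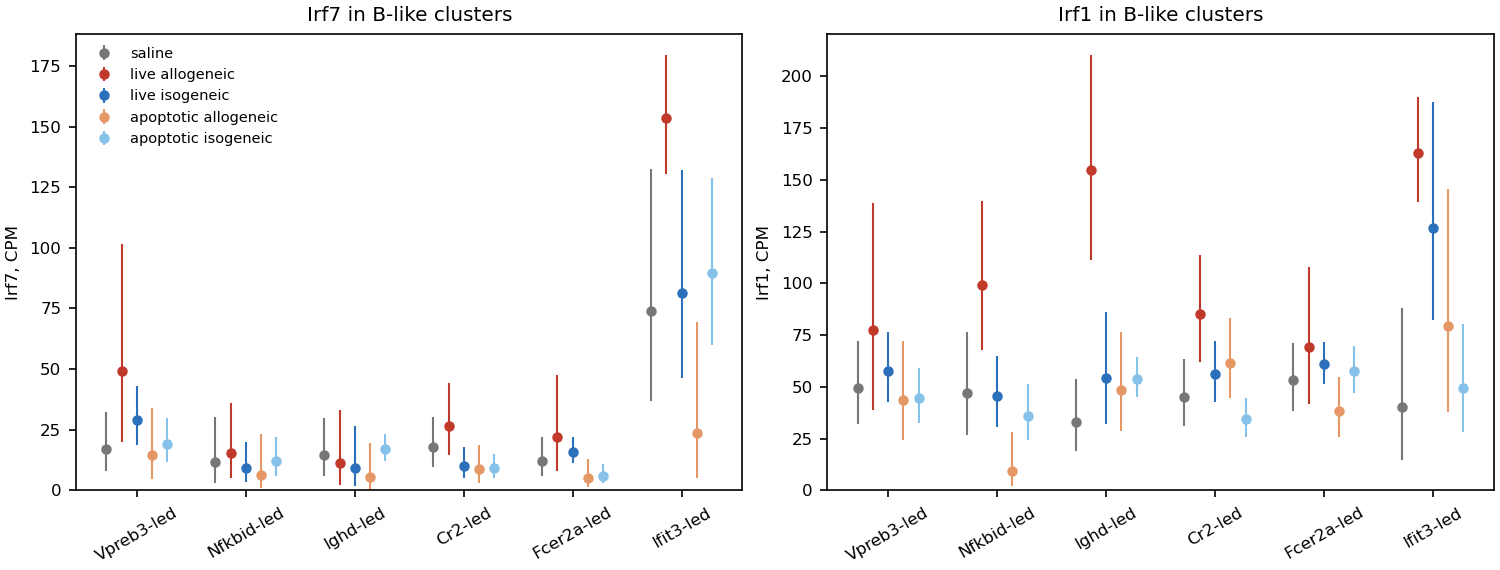
Irf7 (left) and Irf1 (right) in 6 B cell-like clusters and 5 libraries, in CPM on a linear axis from 0 with 95% Poisson bars. Irf7 is highest in the Ifit3-led cluster of the live allogeneic library (153 CPM), while Irf1 is high in the live allogeneic library in several clusters (163 CPM in the Ifit3-led and 155 CPM in the Ighd-led cluster).

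T cell-like cells had Irf4, Irf7 and Irf8 higher in the live allogeneic library. Irf7 was at 37.5, 85.6, 33.5, 31.8 and 27.7 CPM, Irf8 at 27.3, 67.1, 29.3, 14 and 20.8 CPM and Irf4 at 4.26, 24.7, 5.01, 6.55 and 4.75 CPM (saline, live allogeneic, live isogeneic, apoptotic allogeneic, apoptotic isogeneic). All 3 had the live allogeneic level apart from the other 4. Between the live libraries these were 3 of 7 measured members higher beside 17.6% of all genes, at 2.55-fold for Irf7, 2.29 (1.68 to 3.13) for Irf8 and 4.92 (2.55 to 10.1, 36 against 13 UMIs) for Irf4, with 0 of 7 lower beside 25.7%. Of the 36 Irf4 UMIs, 30 lay in a cycling cluster led by Trbc2 that held 19 live allogeneic cells among its 42, and without it Irf4 had too few UMIs for a fold. Without that cluster Irf7 was at 3.25-fold (2.39 to 4.41) and Irf8 at 1.81 (1.21 to 2.66). By cluster, the Irf7 fold was 4.42 (2.60 to 7.71) in the Cd8b1-led, 2.97 (1.56 to 5.62) in the Cxcr6-led and 2.31 (1.19 to 4.31) in the Lef1-led cluster. Irf8 in the Lef1-led cluster was at 82.0 against 8.11 CPM (10.1-fold, 4.14 to 27.1), on 17 against 8 UMIs from 40 and 240 cells. How many cells of this cluster hold the 17 UMIs is not given here, and the interval does not cover UMIs gathered in few cells. In the other clusters the Irf8 fold had intervals that include 1, at 0.924 (0.322 to 2.37) in the Cd8b1-led and 1.39 (0.562 to 3.18) in the Cxcr6-led cluster. B cell markers, from cells that carry Irf8, summed to 315 CPM in the live allogeneic T cell-like cells and to 358 to 802 CPM in the others, over the whole class, and their part in the Irf8 value was not tested. Markers of pDC-like and cDC1-like cells, the classes with the most Irf8, were not gauged in T cell-like cells. The apoptotic libraries had 0 of 7 members past 1.5-fold (7.16% of all genes higher, 9.38% lower).

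In the smaller classes Irf1 was higher after live allogeneic infusion in erythroid-like cells and lower in mature DC-like cells. It was also past 1.5-fold higher in the Coch-led cluster (1.61, 0.954 to 2.75, 35 against 28 UMIs) and lower in NK cell-like cells (0.648, 0.382 to 1.05, 21 against 89 UMIs, beside 22.9% of all genes lower), with intervals that include 1. In erythroid-like cells it was at 2.88, 22.7, 6.58, 5.60 and 6.45 CPM, the live allogeneic level apart from the others and 3.45-fold (2.22 to 5.39) that of live isogeneic. There Irf1 and Irf7 were 2 of 6 measured members higher beside 4.18% of all genes and Irf8 was 1 of 6 lower beside 13%, at 0.286 (0.0746 to 0.788) on 4 against 43 UMIs; the erythroid-like cells of the live isogeneic library had a median of 4054 UMIs against 24790 to 41387.5 elsewhere. In mature DC-like cells, where Irf1 was highest, it was lower in the live allogeneic library, at 0.666-fold (0.465 to 0.938) of live isogeneic, and Irf5 was at 0.568 (0.275 to 1.09), 2 of 7 lower beside 20.9% of all genes, with 0 of 7 higher beside 19.4%. Irf2 was within 1.5-fold in all 11 classes compared between the live libraries (0.703 to 1.24) and in all 14 compared between the apoptotic libraries. Irf9 was within it in 10 of 11 between the live libraries (0.653 to 1.38), the Cd209a-led cluster being the exception.

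The genes around the family were described from lists of the pathway. Of the type I and III interferons listed (8 genes), none had a UMI in the kept cells of any library. With 10559662 to 23998473 UMIs in those cells, a count of 0 was taken to allow up to 3 UMIs per library. RNA of these genes was thus not detectable at this depth. Ifng, the type II interferon, had 50, 30, 66, 34 and 101 UMIs (saline, live allogeneic, live isogeneic, apoptotic allogeneic, apoptotic isogeneic). In the same order, these lay in 29 of 2894, 21 of 1185, 44 of 3680, 21 of 2114 and 69 of 6263 kept cells. The UMI counts are not scaled to depth or to the number of cells.

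Among targets of ISGF3 and IRF7, 14 of 16 measured in cDC2-like cells were past 1.5-fold higher and 0 lower in the live allogeneic against the live isogeneic library, beside 10.4% of all genes higher and 17.6% lower, with a median log2 ratio of 1.00 against -0.05 over all genes. The ubiquitin-like protein gene Isg15 was at 329 against 86.1 CPM (3.82-fold), the antiviral chaperone gene Rtp4 at 134 against 45.0 (2.97-fold), Ifi27l2a at 900 against 387 (2.33-fold) and the virus tether Bst2 at 134 against 66.1 (2.02-fold). Of the targets of IRF1, 9 of 13 were higher and 0 lower (median 0.72) although Irf1 itself was at 0.803-fold: the immunoproteasome genes Psmb9 (1.92-fold) and Psmb8 (1.60-fold), the peptide transporter Tap1 (1.68-fold) and the GTPase Gbp4 (1.95-fold) were among them. Stat2, the partner of Irf9 in ISGF3, was at 1.85-fold. Of 15 sensors, adaptors and kinases that act on IRF proteins, 2 were higher, among them the RNA sensor Tlr7 (1.74-fold), and 3 lower, the adaptors Traf6 (0.465-fold), Traf3 (0.521-fold) and Ticam1 (0.527-fold), which is near the share of all genes that were lower. The DNA-binding partners of IRF4 and IRF8 had 0 of 7 higher and 2 lower, Spib (0.403-fold) and Junb (0.621-fold).

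Between the apoptotic libraries the same ISGF3 and IRF7 list had 0 of 16 higher and 6 lower in cDC2-like cells, beside 7.31% and 6.59% of all genes (median -0.21 against 0.01 over all genes), among them Ifit3 (0.466-fold), Dhx58 (0.485-fold), Ifit1 (0.631-fold) and Ifi27l2a (0.638-fold), while Irf7 itself was at 0.968-fold. In the Cd209a-led cluster 10 of 13 were lower (10.2% of all genes) and 0 higher (median -0.68). The live pair had this list higher in every class counted: 18 of 19 in B cell-like (5.04% of all genes), 18 of 19 in T cell-like (17.6%), 16 of 17 in Cd209a-led (18.6%), 9 of 12 in pDC-like (10.2%) and 7 of 10 in cDC1-like cells (11.3%). IRF1 targets were less uniform, with 11 of 14 higher in Cd209a-led, 8 of 14 in B cell-like and 8 of 13 in T cell-like cells, but 2 of 15 higher and 4 lower (10.1% of all genes) in cDC1-like cells and 0 of 8 higher in pDC-like cells. Against saline, the live allogeneic cDC2-like cells had 13 of 16 ISGF3 and IRF7 targets and 8 of 13 IRF1 targets higher (10.5% of all genes), among the latter the CXCR3 ligand genes Cxcl10 (7.38-fold) and Cxcl9 (6.81-fold), which share that library with the live comparison.

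Cell by cell, Irf7 and these targets were set side by side with each cell thinned to 1000 UMIs. After live allogeneic infusion, the 7 of 73 cDC2-like cells with an Irf7 UMI had 3.14 target UMIs per cell and the 66 without had 2.45. After saline the values were 2.21 and 0.783 (19 and 314 cells), after live isogeneic 1.79 and 0.923, after apoptotic allogeneic 1.36 and 0.746 and after apoptotic isogeneic infusion 2.81 and 0.949. Live allogeneic cells without an Irf7 UMI thus had more target UMIs than cells without one in the other 4 libraries. In B cell-like cells of the live allogeneic library the 41 cells with an Irf7 UMI had 7.51 target UMIs and the others 2.67, and in the Cd209a-led cluster the 16 of 48 with one had 9.06 and the others 3.88. The order was the other way in T cell-like cells after live isogeneic infusion (0.85 with and 1.16 without, 20 and 526 cells). It was also the other way in cDC1-like cells after apoptotic allogeneic infusion (0.111 and 0.211, 9 and 237 cells). At 1000 UMIs most cells that carry Irf7 RNA have no Irf7 UMI, so the cells without one are no Irf7-negative group.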

How the data were processed

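UMI counts per gene and barcode were deposited by the authors as whole numbers, and the submitters' processing notes name Cell Ranger 4.0 and the mm10 build. The libraries used the single cell 3′ v3.1 protocol per the labels' protocols. Nothing else was normalized before deposit as far as the values show. The apoptotic allogeneic file lists only barcodes with at least 500 UMIs, and the other 4 list all barcodes. Kept barcodes had 1000 UMIs or more, 500 genes or more and no more than 10% of UMIs from mitochondrial genes. Scrublet, run per library at an expected rate of 0.8% per 1000 cells, called 135 of 16271 cells (0.83%) doublets, 117 of them in the apoptotic isogeneic library, and these were left out. In the other 4 libraries it called under 0.5% of cells, so doublets may remain. Between 0 and 8 barcodes were shared by any 2 libraries.

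Cells were clustered with scanpy 1.11.5 and the Leiden method (2000 variable genes, 30 components, 15 neighbours, resolution 1). The 8 members and the 90 genes of the pathway lists were left out of the variable genes. A cluster was named from 17 marker lists, where at least 3 markers and 25% of a list had a log2 ratio of at least 1 to the other cells and were found in 10% of cells; it was otherwise called by its leading gene. UMIs were summed per class and library. A gene was measured with at least 20 UMIs in both sums together, and called past a fold of 1.5. Folds needed 20 cells in each library, a minimum chosen after seeing that the live allogeneic library had 29 red pulp macrophage-like and 27 mature DC-like cells; a mean over libraries needed 10. Intervals are exact at 95%: Poisson for levels, conditional Poisson for folds, Clopper-Pearson for shares (a ratio of 2 folds has an approximate normal interval on the log scale instead), computed with scipy 1.17.1. A count of 0 was taken to allow 3 UMIs, a fixed floor that lies below the upper limit of the exact Poisson interval. These intervals and floors cover counting error only. With 1 library per treatment no test was run. Sums for likeness needed 30 cells and 50000 UMIs in every library, and genes 500 UMIs, with immunoglobulin, T cell receptor, haemoglobin, mitochondrial and ribosomal protein genes left out. The fold and interval code was tested on simulated data.

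The genes named are the 8 members, the 3 genes most like each one over the sums (and within classes), and up to 4 genes of each of 7 pathway lists, those past 1.5-fold that had the highest UMI count. The members and the lists were chosen with earlier results of these data known, so a list's direction is not independent evidence. Gene positions are those of the GENCODE annotation of mm10. The alternatives tried are given in the closing section. A few genes named by these rules are not reported here.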

Additional observations from a re-analysis of the deposited data

Results flagged for a closer look

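Irf7 differed in opposite directions between the live and the apoptotic pair in 2 classes. In B cell-like cells the allogeneic library was at 4.20-fold of the isogeneic one for live cells and at 0.536-fold for apoptotic cells. In the Cd209a-led cluster the folds were 4.22 and 0.324. With 1 library in each arm, the difference between the pairs was not tested.

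Barcodes of at most 100 UMIs, which the comparisons between cell classes do not use, also differed from saline. In the live allogeneic library Irf7 was at 2.71-fold and Irf1 at 1.58-fold of the saline level in those barcodes. Irf4 was at 1.82-fold in the live isogeneic and 1.53-fold in the apoptotic isogeneic library, and Irf5 was at 1.43-fold in the live isogeneic and 0.658-fold (0.456 to 0.945) in the apoptotic isogeneic library.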

How the results depend on the processing

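No paired analysis was possible because each treatment has 1 library and every library carries the replicate number 1. The count of 2 members past 1.5-fold in cDC2-like cells of the live pair became 1 (Irf7) at a fold of 2. It was 2 in the other settings, but with other genes: Irf7 and Irf8, both higher, with the interferon genes among the variable genes, at resolution 0.5 and with the Cd209a-led cluster included, and Irf5 and Irf7 with cells thinned to 1000 UMIs. Irf4 was not counted past 1.5-fold in any of the settings just named. The Irf7 fold of 3.30 became 4.64 with the interferon genes among the variable genes, 4.80 at resolution 0.5, 4.84 with the Cd209a-led cluster (a setting chosen after seeing the data) and 1.95 with thinned cells, and was 3.08 to 3.47 otherwise. With the interferon genes, a Cd209a-led cluster of 455 cells was itself named cDC2-like, and the class held 128 live allogeneic cells in place of 73. At resolution 0.5 it held 119, and its cluster of 1710 cells had Cd209a among its top genes. These settings thus overlap with the one that adds the Cd209a-led cluster and are not separate checks. The count of 0 between the apoptotic libraries became 1 (Irf7 lower) with the interferon genes among the variable genes, at resolution 0.5 and with the Cd209a-led cluster, 1 (Irf8 lower) without the top 5% of cells by UMIs, and 2 (Irf1 and Irf4 higher) with thinned cells. The count of 4 against saline became 2 at a fold of 2 and with the Cd209a-led cluster. Irf8 in cDC2-like cells against saline reversed from 2.25 to 0.927 with at least 2000 UMIs per cell. The highest class held for 5 of 8 members at resolution 2 (Irf1, Irf2 and Irf5 changed) and for 5 with at least 2000 UMIs (Irf2, Irf5 and Irf9), and for 7 without the live allogeneic library (Irf4, highest in plasma cell-like cells). Of 257 values for single members under the alternatives, 232 stayed within counting error of the reported value, 24 moved past it and 1 reversed. Only a member reported past 1.5-fold could be labelled reversed, so other changes of direction are not in that count. In cDC2-like cells of the live pair, Irf8 ran from 0.703 to 2.43 and Irf1 from 0.761 to 1.24 under the alternatives. The tally of 257 values leaves out Irf7 in cDC2-like cells of the live pair. Of its 9 alternatives, 5 stayed within counting error and 4 moved past it. The causes were not tested. Depth limits the folds of Irf4 and Irf8 in cDC2-like cells most, which rest on 14 and 17 UMIs in the live allogeneic library.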
